A study of Homo sapiens with 6 samples.

Results

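Matrix metalloproteinases (MMPs), the related secreted ADAMTS proteases and their tissue inhibitors (TIMPs) were examined in the breast epithelial line MCF10.AT1 and its fluvastatin-resistant derivative MCF10.AT1-R. All gene symbols of these families in the deposited array table were taken by their spelling (MMP, ADAMTS or TIMP with a number), which gave 46 genes of 81496 symbols, with 24 MMPs, 19 ADAMTS genes and 3 TIMPs. They are covered by 56 probe sets. For 44 of them a single probe set carries the symbol, and for ADAMTS13 and ADAMTS17 the probe set was chosen by its mean log2 value over the 5 compared arrays, the highest being used. No row carries TIMP2, which was not analysed here. The levels therefore describe the genes and were not tested for how high they are. The difference between the lines was the measure tested.

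MCF10.AT1 is a preneoplastic, fluvastatin-sensitive human line that belongs to the MCF10A series, and its cells were left untreated. MCF10.AT1-R was derived from it by exposure to fluvastatin, an inhibitor of the mevalonate pathway enzyme HMG-CoA reductase, in doses that rose from 1 µM through 5 µM to 20 µM. It is 1 selected line, so a difference that goes with resistance cannot be told apart from one that arose during selection, and the sources used here do not say whether fluvastatin was present when RNA was taken. Total RNA of 3 replicates of each line, called biological by the submitters, was hybridised to Clariom D arrays, which measure each transcript with a set of short probes. The arrays are named A01, A02 and A03 for MCF10.AT1 and B02, B03 and B04 for MCF10.AT1-R. The line of each array was read from the legend of the study's principal component plot.

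A03 stood apart, as its correlation with the other arrays was 0.780 to 0.795 while the other 5 correlated with each other at 0.967 to 0.977. It was left out of the comparison, as in the study, and its values are shown in the plot of values by array and given in the text for the MMP, ADAMTS and TIMP genes described as not overlapping between the lines. Genes listed as basal mammary epithelial markers were present in both lines, with 8 of 8 above the negative controls on every one of the 5 arrays. This list includes CDH1 and EPCAM, which are not particular to basal cells. The summed log2 level of the 8 genes was 54.6 to 55.8 in MCF10.AT1 and 68.1 to 68.9 in MCF10.AT1-R. Of the 8, 5 (KRT5, KRT14, KRT17, TP63 and CDH1) passed the test as higher in MCF10.AT1-R, against 1.01% of the 35766 symbols tested. Of 7 fibroblast markers 3 (COL1A1, COL1A2 and COL3A1) were above the controls on all 5 arrays, while LUM and PDGFRB were above them on no array. Of 6 leukocyte markers 3 (CD14, CD68 and CSF1R) were above them on all 5 arrays, and PTPRC and AIF1 on none. Of 5 endothelial markers 3 (PECAM1, VWF and TIE1) were above them on all 5 arrays, and KDR on none. For all symbols the share above the controls on all 5 arrays was 29.0%. In these bulk samples fewer cells that express a gene and less RNA of it per cell cannot be told apart.

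MMPs are zinc-dependent enzymes that are made as inactive proenzymes and, once activated, cleave collagens, gelatin, laminins and other matrix proteins, growth factors and receptors. ADAMTS proteases carry thrombospondin repeats by which they bind to the matrix, and their best known substrates are large proteoglycans, procollagens, fibrillins and von Willebrand factor. TIMPs block the active site of MMPs, and TIMP3 also inhibits several ADAM and ADAMTS enzymes. In breast tissue these families take part in branching of the ducts and in the involution of the gland, and much of the MMP there is made by stromal cells. The arrays measured their RNA, not the amount or the activity of the enzymes.

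Promoter sequence was available from RefSeq (GRCh38.p14) for 27 of the 46 genes, in 28 entries since ADAMTS10 has 2. ADAMTS1 and MMP2, which passed the test described below, were not among the 27 and were not searched. Promoters of this family are known for AP-1 and ETS motifs. The 250 bases before each start were therefore searched on both strands for TGANTCA, an AP-1 motif, and AGGAAG, an ETS motif. Other forms of these motifs were not searched. TGANTCA was found in 4 of the 28 promoters (14.3%), against 6.57% of 35116 promoters in the table. AGGAAG was found in 6 of the 28 (21.4%), against 28.7% of all. The windows with TGANTCA are shown because 3 of the 4 belong to the MMP cluster on chromosome 11, each as the base sequence of the gene's own strand, which is the minus strand for all 4, with the motif in capitals.
MMP7, chr11:102530798-102530824: aacactcaaaTGAGTCAcctatttcca
MMP10, chr11:102780679-102780705: aacacatgcaTGAATCAtactgttggt
MMP20, chr11:102625428-102625454: gtttgagacaTGAATCAtccttgctcg
ADAMTS12, chr5:33892058-33892084: cactgtcagcTGAATCActcccctttt
The motif lies 67 to 61 bases before the start in MMP7 and also in MMP10, 112 to 106 bases before it in MMP20 and 84 to 78 bases before it in ADAMTS12. Such a match describes the letters and is not a measured site.

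The 250 bases before the start of TIMP1 (chrX:47582186-47582435, plus strand) are shown because TIMP1 was one of the genes that fell, with AGGAAG in capitals at 87 to 82 bases before the start.
TIMP1 promoter: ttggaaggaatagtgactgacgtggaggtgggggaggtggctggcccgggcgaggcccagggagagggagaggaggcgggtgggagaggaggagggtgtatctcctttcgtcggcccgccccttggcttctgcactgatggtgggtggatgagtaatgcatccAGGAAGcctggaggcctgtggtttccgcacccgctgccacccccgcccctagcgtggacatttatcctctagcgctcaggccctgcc
TGANTCA does not occur in it on either strand. AP-1 sites with other letters, such as the near match tgagtaa before AGGAAG, were not searched, so their absence is not implied.

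A gene was called above background on an array when its log2 value exceeded the 95th percentile of the 612 negative control probe sets of that array, which lay between 2.88 and 3.14 on the 5 arrays. Of the 46 genes, 15 were above it on all 5 arrays (32.6%), against 29.0% of all symbols. On all arrays of at least 1 line 23 genes were above it (50.0%), against 33.4% of all symbols. Of these, 5 were so in MCF10.AT1 without being above it on every MCF10.AT1-R array (MMP9, MMP10, MMP16, ADAMTS9 and TIMP4), and 3 the other way round (ADAMTS1, MMP11 and MMP15). A further 8 genes exceeded the controls on some arrays of the 5 and 15 on none. By the mean over 5 arrays, ADAMTS9 at 3.09 lay just above the mean control percentile of 2.99 and MMP19 at 2.92 just below it.

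**Figure D1:**
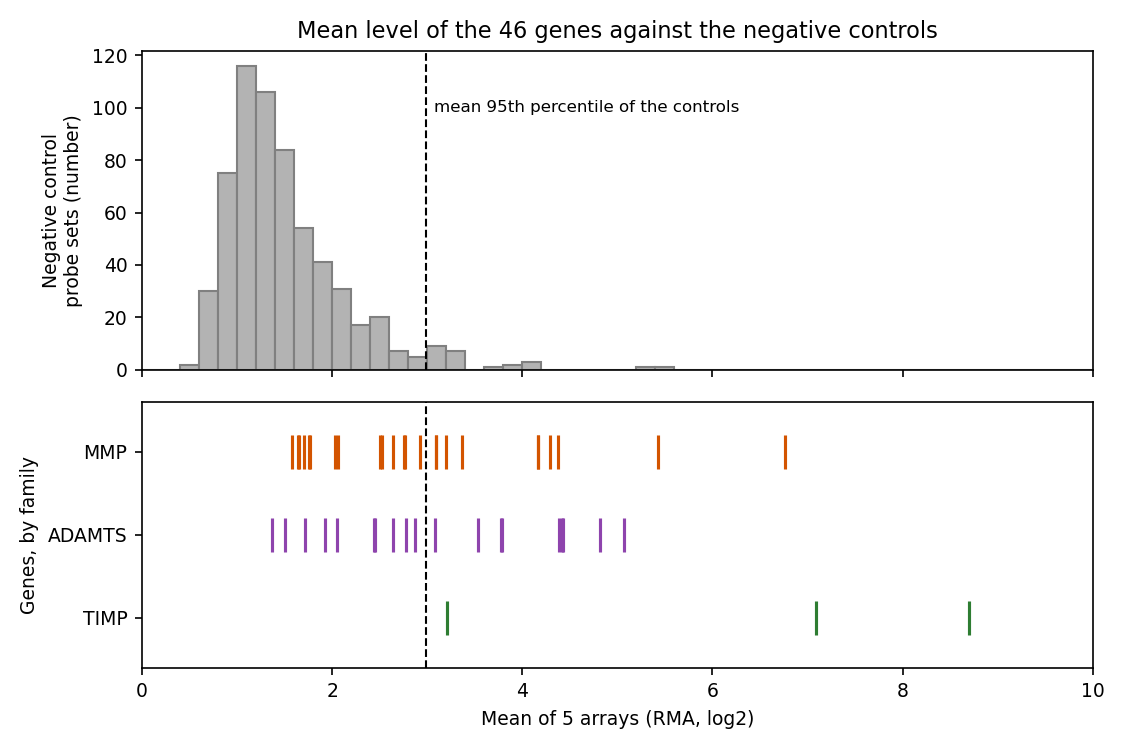
The upper panel counts the 612 negative control probe sets by their mean log2 value over the 5 compared arrays, and the lower panel marks the mean of each of the 46 genes on the same axis, by family. The dashed line is the mean control percentile of 2.99, with 24 MMP, 19 ADAMTS and 3 TIMP marks spread on both sides of it and all 3 TIMP marks to its right.

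Of the 46 genes, 34 passed the filter on low and invariant probe sets and were tested with limma. Of the other 12, 9 had a low mean and 3 (TIMP3, ADAMTS16 and ADAMTS17) a low SD. ADAMTS1 was higher in MCF10.AT1-R at an FDR of 5% and TIMP1 and MMP2 were lower, while 31 tested genes passed in neither direction, so that 8.82% of the tested genes were called, against 1.52% of the 35766 symbols tested. The 1 gene that rose is 2.94% of the 34, against 1.01% of symbols that rose, and the 2 that fell are 5.88%, against 0.509%. All arrays of 1 line lay above all arrays of the other for 12 of the 34 genes (35.3%), against 28.1% of the symbols tested. The resistant line was the higher one for 6 of these 12 and the lower one for 6, against 13.9% and 14.3% of the symbols tested. The median difference of the tested genes was 0.15 on the log2 scale, against -0.02 over all tested symbols. ADAMTS1 passed the limit on the mean through its MCF10.AT1-R arrays alone, so these counts describe the genes that passed and support nothing about the 46.

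**Figure D2:**
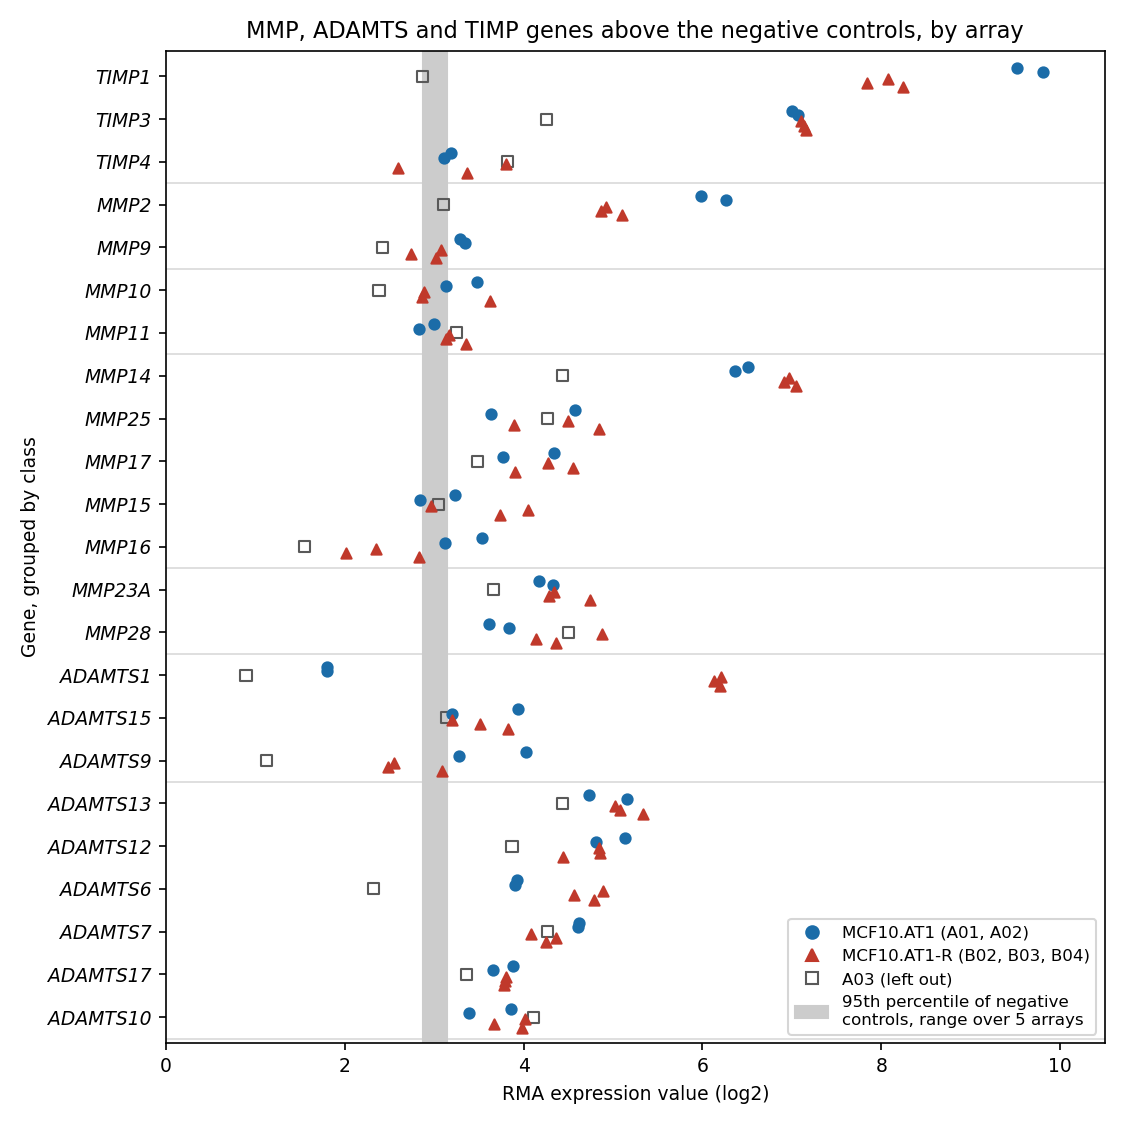
Each row is 1 of the 23 genes above the negative controls on all arrays of at least 1 line, and each point is the RMA log2 value of 1 array (circles MCF10.AT1, triangles MCF10.AT1-R, open squares the left-out A03). The grey band spans the control percentile of the 5 arrays, 2.88 to 3.14, and TIMP1, MMP2 and ADAMTS1 show the widest gaps between circles and triangles.

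Of the inhibitors, TIMP1 fell and TIMP3 and TIMP4 were not called. TIMP1, a secreted inhibitor of most soluble MMPs that also acts on cell survival, had log2 values of 9.52 on A01 and 9.81 on A02, and of 8.08 on B02, 7.84 on B03 and 8.24 on B04. Both MCF10.AT1 arrays lay above all 3 MCF10.AT1-R arrays. The means were 9.67 ± 0.20 (SD, n = 2) and 8.05 ± 0.20 (SD, n = 3), so expression fell by 1.61 on the log2 scale (SE 0.31), or 3.06-fold (limma, adjusted p = 6.42e-05). The lines differed by far more than their replicate SDs. The small p rests on the common SD that limma used for all genes after the filter. In limma the adjusted p of TIMP1 was 0.0368 with no filter. It was 0.0252 with values raised to the control percentile of each array. The adjusted p was 0.0636 without A02, with A01 then assumed to vary like the resistant arrays. On A03 TIMP1 was at 2.87, within the negative controls, and with A03 added the difference turned to 0.65 (adjusted p = 0.886).

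TIMP3, the inhibitor that stays bound to the matrix, had nearly the same value on every compared array. It was at 7.0 and 7.07 in MCF10.AT1, at 7.11, 7.13 and 7.16 in MCF10.AT1-R and at 4.25 on A03. The resistant arrays were all higher, by 0.10 on average, and the probe set was removed as invariant. Without the filter its adjusted p was 0.95 in limma. TIMP4 was near the negative controls, at 3.19 and 3.10 in MCF10.AT1 and at 3.80, 2.6 and 3.36 in MCF10.AT1-R. Its lines overlapped, and the difference of 0.11 did not pass (adjusted p = 0.939, 95% interval -0.50 to 0.72).

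The gelatinases MMP2 and MMP9, which cleave denatured collagen and the type IV collagen of basement membranes, were both lower on every resistant array, and only MMP2 passed the test. MMP2 was at 5.98 and 6.27 in MCF10.AT1 and at 4.92, 4.86 and 5.10 in MCF10.AT1-R. The lines did not overlap and were 1.17 apart on the log2 scale, with means of 6.13 ± 0.20 (SD, n = 2) and 4.96 ± 0.13 (SD, n = 3), a 2.24-fold decrease (limma, adjusted p = 0.0203, 95% interval -1.78 to -0.56). This call depended on the arrays, the filter and the variance model, while the difference stayed between -1.31 and -1.02 with 1 array left out. The adjusted p was 0.142 without A01, 0.555 without A02, 0.0703 without B02 and 0.0538 without B03, and it was 0.127 with no filter and 0.0959 with the low-expression filter alone. MMP2 passed when limma let the variance follow the expression level (trend option), with an adjusted p of 0.000194 after both filters and 0.00313 after the low-expression filter alone. On A03 MMP2 was at 3.10, and with A03 added the difference was -0.16 (adjusted p = 0.944).

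MMP9 was at 3.29 and 3.34 in MCF10.AT1, just above the controls, and at 3.08, 2.74 and 3.02 in MCF10.AT1-R, where B03 was not above them, and at 2.42 on A03. The lines did not overlap, but the difference of -0.37 did not pass (adjusted p = 0.824, 95% interval -0.98 to 0.24).

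Beside TIMP1 and MMP2, 1 marker of each of the lists for other cells fell, against 0.509% of all symbols tested. The other tested markers of these lists were not called. The remaining markers were removed by the filter and could not be called. The summed log2 level of the 7 fibroblast markers was 30.2 to 30.7 in MCF10.AT1 and 27.6 to 28.7 in MCF10.AT1-R. Of these markers 2 were tested and 1, the proteoglycan gene DCN, fell by 2.15, while the collagen genes COL1A1, COL1A2 and COL3A1 differed by 0.15, 0.13 and -0.16 and were removed as invariant. The sum over 6 leukocyte markers was 17.9 to 18.9 in MCF10.AT1 and 18.5 to 19.1 in MCF10.AT1-R, so that the lines overlapped, with 1 call of 4 tested, CD14, which fell by 1.12. The sum over 5 endothelial markers was 17.2 to 17.5 in MCF10.AT1 and 14.97 to 16.9 in MCF10.AT1-R, with 1 call of 3 tested, PECAM1, which also fell by 1.12. Their part in the result was not tested, nor was that of the higher genes in the basal epithelial list.

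Among the membrane-type MMPs no gene passed the test, and 6 of 6 were tested. MMP14, the transmembrane enzyme that activates the proenzyme of MMP2 at the cell surface with the help of TIMP2, was at 6.50 and 6.36 in MCF10.AT1 and at 6.97, 6.91 and 7.05 in MCF10.AT1-R. All 3 resistant arrays were higher, and the SDs were 0.10 and 0.07. The difference of 0.54 was larger than this spread, yet it did not pass with the common SD that limma used (adjusted p = 0.690, 95% interval -0.07 to 1.15). Nor did it pass in limma with no filter (adjusted p = 0.641) or with the trend option (adjusted p = 0.106). On A03 MMP14 was at 4.43.

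MMP16, another transmembrane enzyme, was above the controls at 3.54 and 3.12 in MCF10.AT1 and within them at 2.35, 2.02 and 2.83 in MCF10.AT1-R and at 1.55 on A03. With MCF10.AT1-R set to its control percentile, its mean was 1.32-fold lower, a value without an error term. The measured difference of -0.93 did not pass (limma, adjusted p = 0.142). The other members overlapped between the lines. MMP15, the transmembrane relative of MMP14, was at 3.24 and 2.84 against 2.96, 4.05 and 3.74, a difference of 0.54 (adjusted p = 0.689). The lipid-anchored enzymes MMP17 and MMP25 differed by 0.19 (adjusted p = 0.885) and 0.30 (adjusted p = 0.839). MMP24 ranged from 1.86 to 3.04 and exceeded the controls on 1 resistant array.

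The collagenases MMP1, MMP8 and MMP13, the matrilysins MMP7 and MMP26 and the stromelysins MMP3 and MMP10, which attack fibrillar collagens, laminins and proteoglycans, were at or near background. All of these genes but MMP26 lie, with MMP20, MMP27 and MMP12, in a run of 9 neighbouring protein-coding genes on chromosome 11 in RefSeq, in the order MMP7, MMP20, MMP27, MMP8, MMP10, MMP1, MMP3, MMP12 and MMP13. Only MMP10 and MMP1 of this run exceeded the controls on any compared array. MMP10 was at 3.48 and 3.13 in MCF10.AT1 and at 2.88, 2.86 and 3.62 in MCF10.AT1-R, with the lowest and the highest value both in the resistant line. Its difference of -0.19 did not pass (adjusted p = 0.887). MMP1 ranged from 2.25 to 3.37 and was above the controls on 1 array of each line. The motif windows shown for MMP7, MMP10 and MMP20 thus belong to 1 gene near the limit of detection and 2 within the controls.

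MMP11, a stromelysin that is activated inside the cell by furin and lies outside this run, was within the controls at 3.00 and 2.83 in MCF10.AT1 and above them at 3.16, 3.13 and 3.36 in MCF10.AT1-R, with 3.25 on A03. With MCF10.AT1 set to its control percentile, the mean of the resistant line was 1.10-fold higher, a value without an error term. The measured difference of 0.30 did not pass (limma, adjusted p = 0.839, 95% interval -0.31 to 0.91). MMP28, an epithelial MMP also found in keratinocytes, was at 3.61 and 3.83 in MCF10.AT1 and at 4.87, 4.13 and 4.36 in MCF10.AT1-R. The lines did not overlap, the difference was 0.74 (95% interval 0.13 to 1.35), and it did not pass after adjustment over all probe sets (adjusted p = 0.401). A03 held MMP28 at 4.51, among the resistant values.

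MMP23A and MMP23B are near-identical copies whose probes may share targets, and RefSeq lists MMP23A as a transcribed pseudogene, so their values are uncertain. MMP23A differed by 0.20 with overlapping lines (adjusted p = 0.877), and MMP23B ranged from 2.19 to 3.03. Of the remaining MMPs, MMP19 ranged from 2.41 to 3.79 and exceeded the controls on A02 alone, and MMP21 lay between 1.26 and 2.21.

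The ADAMTS proteases that cleave aggrecan and versican include the gene with the largest difference of the 46. ADAMTS1, which also acts in ovulation and vascular growth, was at 1.81 and 1.80 in MCF10.AT1, within the negative controls on both arrays, and at 6.21, 6.13 and 6.20 in MCF10.AT1-R. The lines were far apart, with SDs of 0.01 and 0.04. The means of 1.80 and 6.18 (n = 2 and n = 3) differed by 4.38 (SE 0.31, limma, adjusted p = 1.09e-40). Since only a limit is known for MCF10.AT1, expression was at least 8.55-fold higher in MCF10.AT1-R. The very small p rests on the common SD and on a filter that ADAMTS1 passed through its MCF10.AT1-R arrays. It was 0.000259 with no filter, 0.000683 with the low-expression filter alone and 0.000986 with values raised to the control percentile of each array, and ADAMTS1 passed under all 19 settings that were run. On A03 ADAMTS1 was at 0.90, also within the controls, and with A03 added the adjusted p was 0.00672.

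ADAMTS5, the aggrecan-cleaving enzyme whose gene lies next to ADAMTS1 among the protein-coding genes of chromosome 21 in RefSeq, ranged from 2.04 to 3.04 and exceeded the controls on 1 resistant array. ADAMTS9, a protease of versican, differed in the other direction from ADAMTS1, at 4.03 and 3.28 in MCF10.AT1 and at 2.55, 2.48 and 3.09 in MCF10.AT1-R, with 1.12 on A03. The lines did not overlap, and the difference of -0.95 (95% interval -1.56 to -0.34) did not pass (adjusted p = 0.128). On B02 and B03 ADAMTS9 was within the controls. With values raised to the control percentile of each array its difference was -0.68. ADAMTS15, also a versican protease, was at 3.94 and 3.20 against 3.20, 3.51 and 3.82, and its lines overlapped (difference -0.06, adjusted p = 0.966). Its neighbour on chromosome 11, ADAMTS8, ranged from 2.37 to 3.58 and was above the controls on 2 resistant arrays. ADAMTS4 and ADAMTS20 were above them on no compared array, with ranges of 1.47 to 2.25 and 1.03 to 2.05.

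**Figure D3:**
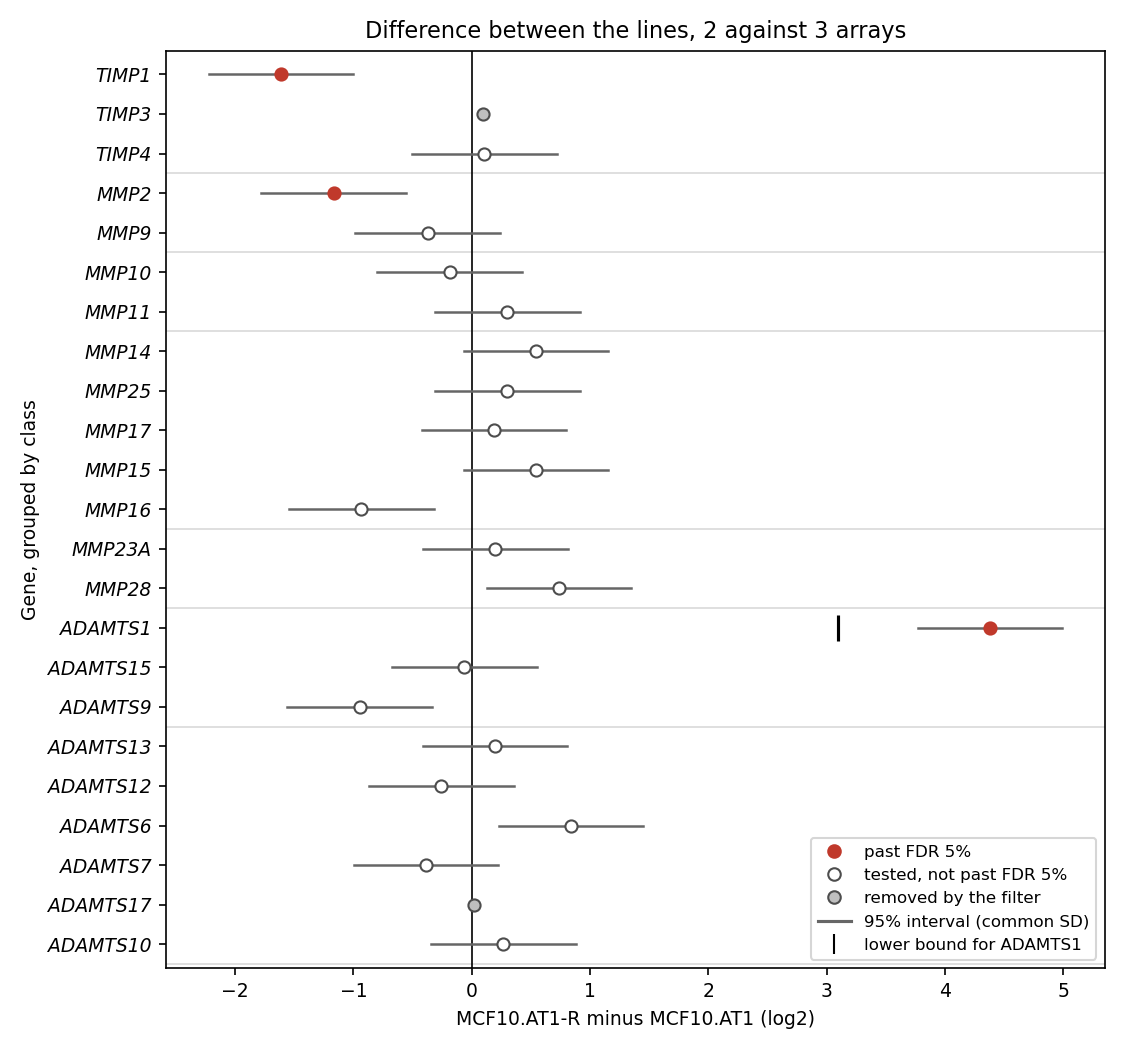
Points give the difference MCF10.AT1-R minus MCF10.AT1 in log2 units for the 23 genes above the controls on all arrays of at least 1 line, with 95% intervals from the common SD of limma (filled red past an FDR of 5%, open tested and not past it, grey removed by the filter and without an interval). ADAMTS1 at 4.38 (tick at its lower bound of 3.10), TIMP1 at -1.61 and MMP2 at -1.17 are the filled points. The intervals of MMP16, MMP28, ADAMTS6 and ADAMTS9 exclude 0 without passing the adjustment. Of these, MMP16 was above the controls on no resistant array and ADAMTS9 on 1, so both intervals rest on values within the controls.

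None of the procollagen N-proteinases ADAMTS2, ADAMTS3 and ADAMTS14, which remove the N-terminal propeptide of fibrillar procollagens, exceeded the controls on all arrays of a line. ADAMTS2 ranged from 2.22 to 3.29 and was above them on 1 resistant array. ADAMTS3 lay between 1.41 and 1.96 and ADAMTS14 between 2.12 and 2.89.

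Of the other ADAMTS genes, 6 of 9 were above the controls on all 5 arrays, against 29.0% of all symbols, and none passed the test. The 6 include ADAMTS13 only by a probe set without a mapped place. ADAMTS6, which acts on fibrillin and on the matrix around cells, was at 3.92 and 3.90 in MCF10.AT1 and at 4.89, 4.56 and 4.79 in MCF10.AT1-R, with 2.32 on A03. All resistant arrays were higher, by 0.84 on average (95% interval 0.23 to 1.45), with an adjusted p of 0.255 in limma. ADAMTS7, a protease of cartilage oligomeric matrix protein and thrombospondin, was at 4.62 and 4.61 against 4.09, 4.36 and 4.25, with 4.27 on A03. Its resistant arrays were all lower, by 0.39 on average, which fell short of the threshold (adjusted p = 0.819, 95% interval -1.0 to 0.23).

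ADAMTS12, a close relative of ADAMTS7, was at 5.13 and 4.81 against 4.84, 4.85 and 4.44, and its lines overlapped with a difference of -0.26 (adjusted p = 0.848). ADAMTS10, which binds fibrillin, differed by 0.27 with overlapping lines (adjusted p = 0.845). ADAMTS17, another enzyme of fibrillin matrix, was removed as invariant, with a difference of 0.02. ADAMTS16, ADAMTS18 and ADAMTS19 ranged from 1.86 to 2.25, from 2.46 to 3.20 and from 1.29 to 1.73.

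ADAMTS13, the protease of von Willebrand factor, has 10 probe sets, of which 9 carry identifiers without a mapped place. The probe set with the highest mean is one of these 9 and gave 4.74 and 5.16 in MCF10.AT1 and 5.02, 5.07 and 5.34 in MCF10.AT1-R (difference 0.20, adjusted p = 0.879). The single mapped probe set was within the controls on every array, with a mean of 1.48, so the level of ADAMTS13 depends on which probe set is taken.

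Regulators, related proteases and substrates were tallied from lists written for this comparison. Of 10 regulators of MMPs, 7 were tested and none passed (limma). They include the membrane-anchored inhibitor RECK (difference -0.14), the scavenger receptor LRP1 (-0.55) and the hyaluronan receptor CD44 (0.67). FURIN, the proprotein convertase that activates several MMPs and ADAMTS proteases, differed by 0.05 and BSG, the inducer of MMPs also called EMMPRIN, by 0.25, and both were removed as invariant. Of 9 ADAM proteases, the membrane-bound relatives of the ADAMTS family, 9 were tested and 1 fell, against 0.509% of all tested symbols. This was ADAM12, at 5.52 and 5.62 in MCF10.AT1 and at 4.20, 3.70 and 4.46 in MCF10.AT1-R, with 1.38 on A03, lower by 1.45 on the log2 scale (adjusted p = 0.000709). The sheddases ADAM10 and ADAM17 differed by 0.26 and -0.04. Of 6 ADAMTS-like proteins, which lack the protease domain, 3 were tested and none passed.

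Of 10 substrates of ADAMTS proteases, 6 were tested and 1, DCN, fell, against the same 0.509%, from 5.31 and 5.32 in MCF10.AT1 to 3.49, 2.76 and 3.25 in MCF10.AT1-R. A03 held DCN at 3.50, near the resistant arrays. DCN encodes decorin, a small collagen-binding proteoglycan, and is the gene counted above among the fibroblast markers. The versican gene VCAN differed by -0.73 (adjusted p = 0.404) and the thrombospondin gene THBS1 by 0.66 (adjusted p = 0.530), both with lines that did not overlap. ACAN, the aggrecan gene, was above the controls on no array.

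On A03, 15 of the 46 genes were above its control percentile. Of the 15 genes above the controls on all 5 other arrays, 11 had their lowest value of all 6 arrays on A03. Higher on A03 than on both other MCF10.AT1 arrays were 14 genes, of which 6 were above its control percentile, TIMP4 (3.82), MMP11 (3.25), MMP23B (4.37), MMP28 (4.51), ADAMTS10 (4.11) and ADAMTS18 (3.23). Of the 3 called genes, ADAMTS1 kept its direction and its call with A03 added, MMP2 lost its call and the difference of TIMP1 changed sign. No other gene of the 46 passed under any of the 19 settings.

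**Figure D4:**
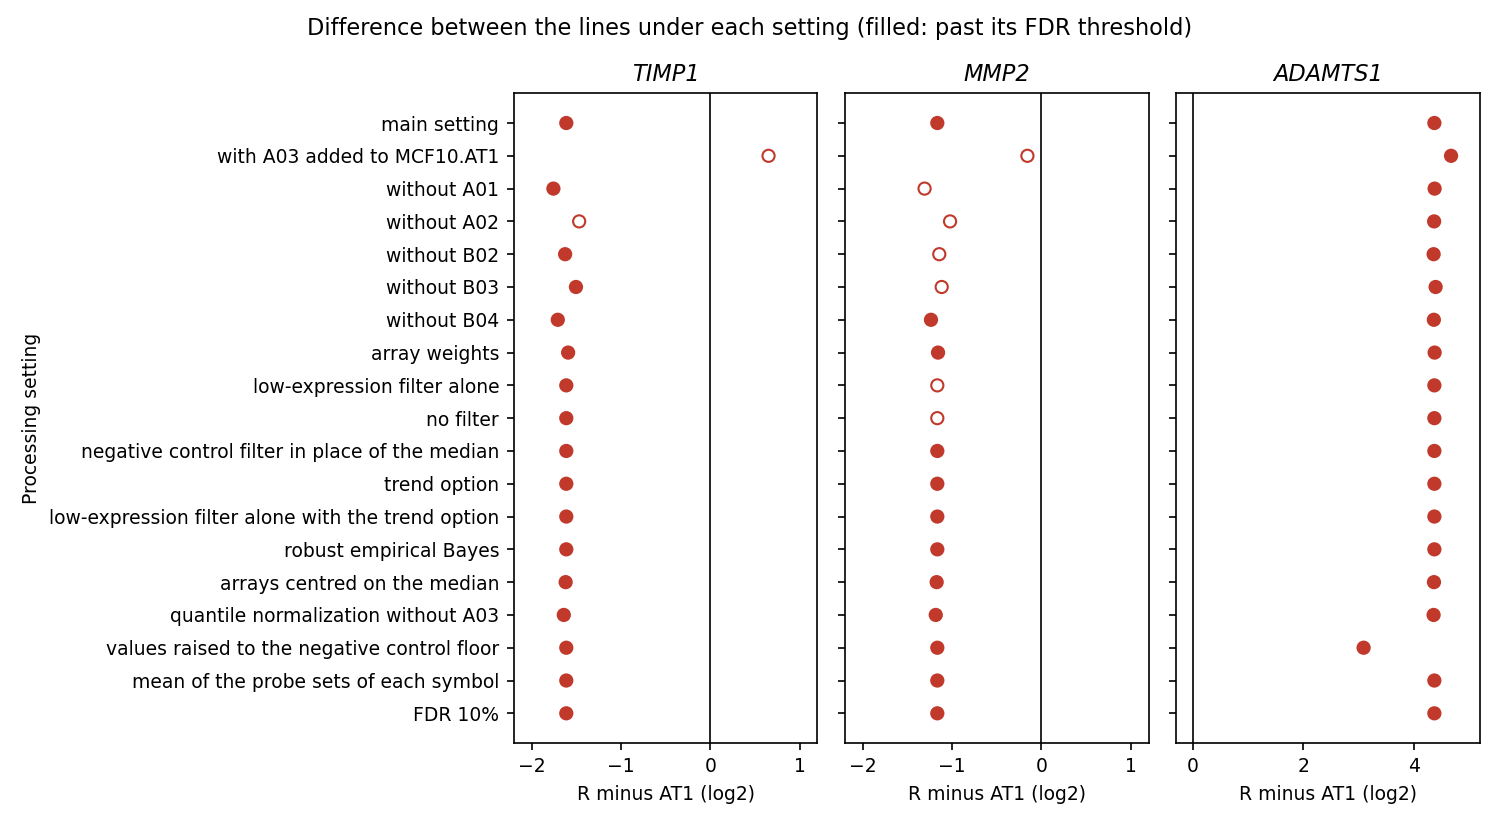
Each row is 1 of 19 processing settings and each point is the difference MCF10.AT1-R minus MCF10.AT1 in log2 units for TIMP1, MMP2 and ADAMTS1, filled where it passed the FDR threshold of that setting. TIMP1 passed under 17 settings, MMP2 under 12 and ADAMTS1 under 19, and the point of TIMP1 with A03 added lies on the other side of 0 at 0.65.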

How the data were processed

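Clariom D arrays measured 3 replicates per line. The authors deposited log2 values per probe set and array, made by RMA (background correction, quantile normalization, probe summarisation) over all 6 arrays, with no filter applied to the deposited values. The genome build of the probe sets is not given in the sources used here, so RefSeq GRCh38.p14 served for gene names, neighbours and its own promoters only. All 135750 transcript probe sets were compared without A03 using limma 3.58.1 (R 4.3.3). Those with a mean above the median (1.88) and an SD above the lowest 25% (0.176) were kept, 51457 in all, with limits set here since the study names none. P-values were two-sided and adjusted by Benjamini-Hochberg over these (FDR 5%). After this filter limma used 1 common SD of 0.34. Genes past FDR 5% or above the controls on all arrays of a line, and the TIMPs, were named with values and the others by range. A line within the controls on every array was set to each array's control percentile for the folds of ADAMTS1, MMP11 and MMP16. These folds carry no error term. The members and lists were chosen with earlier results of these data known. The fit was run on simulated data with independent noise and no array effects, under the main filter only. That run did not test how the calls depend on the filter or the arrays. Precision is limited by the 5 arrays.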

Additional observations from a re-analysis of the deposited data

How the results depend on the processing

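The 23 named genes gave 276 differences under 12 alternatives other than the filters, the robust fit and the threshold. Of these, 256 kept their direction and side of the threshold and 14 changed direction. A further 6, of TIMP1 or MMP2, lost their call and kept their direction. The difference of TIMP1 with A03 added, counted among the 14, lost its call as well. ADAMTS1 was the 1 gene that rose in every setting, with 3.10 as its difference when values were raised to the negative control floor, a setting that shifted the median of all genes by -0.15. The count of genes that fell was 2, but 0 with A03 added, 1 with the low-expression filter alone, 1 with no filter, and 0 to 2 with 1 array left out, where the 0 came without A02. The 620 probe sets past the threshold became 26 with A03 added, 182 with the low-expression filter alone, 177 with no filter, 1377 with the trend option and 1086 with this option after the low-expression filter alone, and 271 (without A02) to 595 (without B03) with 1 array left out. With A03 added the differences of ADAMTS12 (0.11), ADAMTS15 (0.083), MMP10 (0.12), TIMP1 (0.65) and TIMP4 (-0.12) changed sign. With the mean of the probe sets of a symbol this held for ADAMTS13 (-0.10) and ADAMTS17 (-0.055). With 1 array left out, ADAMTS13 lay between -0.016 and 0.41, ADAMTS15 between -0.43 and 0.31, ADAMTS17 between -0.091 and 0.14, MMP17 between -0.10 and 0.48, MMP25 between -0.17 and 0.77 and TIMP4 between -0.17 and 0.43, and none of these 6 genes passed in any setting. The cause was not tested. No paired analysis was possible because the array names carry no replicate numbers. Genes near the negative controls have only limits for their level, and with 2 arrays against 3 small differences were not detectable.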
